A study of Mus musculus with 2 samples.

Results

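The genes described here are 29 interferon-stimulated genes, followed in the livers of NOG-TKm30 mice that had been given acetoaceto-o-toluidide, AAOT for short, which is an amide made from o-toluidine, an aromatic amine. They were chosen by gene symbol as known interferon targets, with earlier results of these data known and without a minimum level, and all 29 were among the 15526 genes of the deposited table. The AAOT library was made from mixed liver RNA of 3 female mice of 22 weeks of age, treated with 0.3% AAOT for 4 weeks. The control library was made in the same way from 3 females at 0% AAOT, of the same age and with the same 4 weeks. Both groups carried the NOG background and the TKm30 transgene, a mutated herpes simplex thymidine kinase driven by the mouse transthyretin enhancer and promoter, which is active in hepatocytes. The strain label names C57BL while the genotype label and the study's design name NOG, and this was left as it stands. NOG mice have no T, B or NK cells, so the lymphocytes that are the usual source of interferon gamma are lacking in both groups. With 1 library per group there was no replicate, so the spread between mice could not be estimated and no test of the treatment was possible.

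Interferons are secreted proteins that make cells resistant to viruses and other intracellular pathogens. Type I interferons act through the receptor chains IFNAR1 and IFNAR2, the kinases JAK1 and TYK2, and a complex that holds STAT2 and IRF9 and binds the interferon-stimulated response element (ISRE). Interferon gamma acts through IFNGR1 and IFNGR2, JAK1 and JAK2, and on to the gamma-activated site (GAS) in DNA, and many genes respond to both kinds. Of the members, 22 were grouped as type I genes and 7 as gamma-type genes, by the interferon each is best known to answer.

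The stretches just before the annotated starts of 6 members are shown because they hold ISRE or GAS letters. These letters did not set the 2 groups, and ISRE letters stood before members of both. Each stretch is the 150 bases before the outermost annotated start, 5′ to 3′ on the gene's strand, from RefSeq on GRCm38.p6. Capitals mark matches to GAAA, any 2 bases and GAAA on either strand (ISRE) and to TTCNNNGAA (GAS, which reads the same on both strands).
Isg15, chr4:156200819-156200968, minus strand, 3 overlapping ISRE matches: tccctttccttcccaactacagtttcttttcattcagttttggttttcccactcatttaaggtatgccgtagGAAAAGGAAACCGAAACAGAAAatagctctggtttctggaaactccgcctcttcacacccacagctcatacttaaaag
Ifit1, chr19:34640739-34640888, plus strand, 2 ISRE matches: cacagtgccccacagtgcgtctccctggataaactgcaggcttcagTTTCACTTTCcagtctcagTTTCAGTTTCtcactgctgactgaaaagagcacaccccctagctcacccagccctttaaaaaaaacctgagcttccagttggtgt
Rsad2, chr12:26456453-26456602, minus strand, 1 ISRE match: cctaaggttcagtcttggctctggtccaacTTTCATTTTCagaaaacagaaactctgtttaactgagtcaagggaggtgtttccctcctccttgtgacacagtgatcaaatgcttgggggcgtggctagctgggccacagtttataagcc
Irf1, chr11:53769864-53770013, plus strand, 1 GAS match: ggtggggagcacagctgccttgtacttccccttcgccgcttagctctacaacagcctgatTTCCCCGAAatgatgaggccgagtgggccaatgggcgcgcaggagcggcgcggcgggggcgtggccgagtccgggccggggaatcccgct
Igtp, chr11:58199406-58199555, plus strand, 1 GAS match and 1 ISRE match: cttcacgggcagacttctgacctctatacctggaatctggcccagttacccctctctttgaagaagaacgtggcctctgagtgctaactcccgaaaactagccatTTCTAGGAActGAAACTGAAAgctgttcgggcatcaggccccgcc
Irgm1, chr11:48871421-48871570, minus strand, 2 overlapping ISRE matches: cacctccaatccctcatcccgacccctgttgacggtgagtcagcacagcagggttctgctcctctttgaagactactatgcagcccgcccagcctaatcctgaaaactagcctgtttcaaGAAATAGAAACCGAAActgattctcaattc

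Interferon-stimulated genes differed little between the pools. None of the 29 (0 higher and 0 lower) was 1.5-fold apart after 1 CPM was added to each value, where CPM is the read number scaled to library size by the authors. Among all 15526 listed genes, 2.36% were 1.5-fold higher and 1.60% were 1.5-fold lower in the AAOT pool, so a count of 0 among 29 is near the background. Without the added CPM the ratios of Oas2, at 1.52, and Gbp2, at 0.666, lay just past 1.5-fold, each on fewer than 100 reads per pool. The type I members leaned higher and the gamma-type members lower. In the AAOT pool 16 of 22 type I members were above the control pool, where 49.7% of all listed genes were above it, and 6 of 7 gamma-type members were below it, where 50.3% of all listed genes were. Rtp4 and Gbp3 lay so near equality that both crossed it under 3 of 4 other scalings, which gave 17 of 22 and 5 of 7. The 22 type I members had a median log2 ratio of 0.11 (SD across genes 0.20) and the 7 gamma-type members one of -0.18 (SD across genes 0.19), beside -0.0016 over all listed genes. Genes are not replicates of a treatment, so this difference of 0.29 between the group medians describes these pools and was not tested.

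Depth set what could be seen for each gene. The AAOT library held 16528533 reads on genes and the control library 18801241. Averaged over the pools, 17 members reached 10 CPM, and the lowest, Mx1, had 12 reads in the AAOT pool and 15 reads in the control pool. The interval beside each ratio below is an exact 95% interval of a ratio of 2 read numbers, and it covers counting error only. This interval lay above equality for 9 of the 29 members (31.0%), all of the type I group, where 12.7% of all listed genes did so. It lay below equality for 5 members (17.2%), which were Ifit3 and the gamma-type Gbp2, Ifi47, Igtp and Irgm1, near the 13.1% of all listed genes. Among the 17 members at 10 CPM or more it lay above equality for 7 (41.2%) and below it for 4 (23.5%), where 18.7% and 20.8% of all 7761 genes at that level did so. These counts moved with the scaling and the interval. With plain CPM of the column totals 11 members lay above equality and 3 below it, since Ifi47 and Irgm1 then included equality. Without Rn45s in those totals 12 lay above, with the upper quartile 7 did, and with a 99% interval 5 lay above and 1 below.

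**Figure D1:**
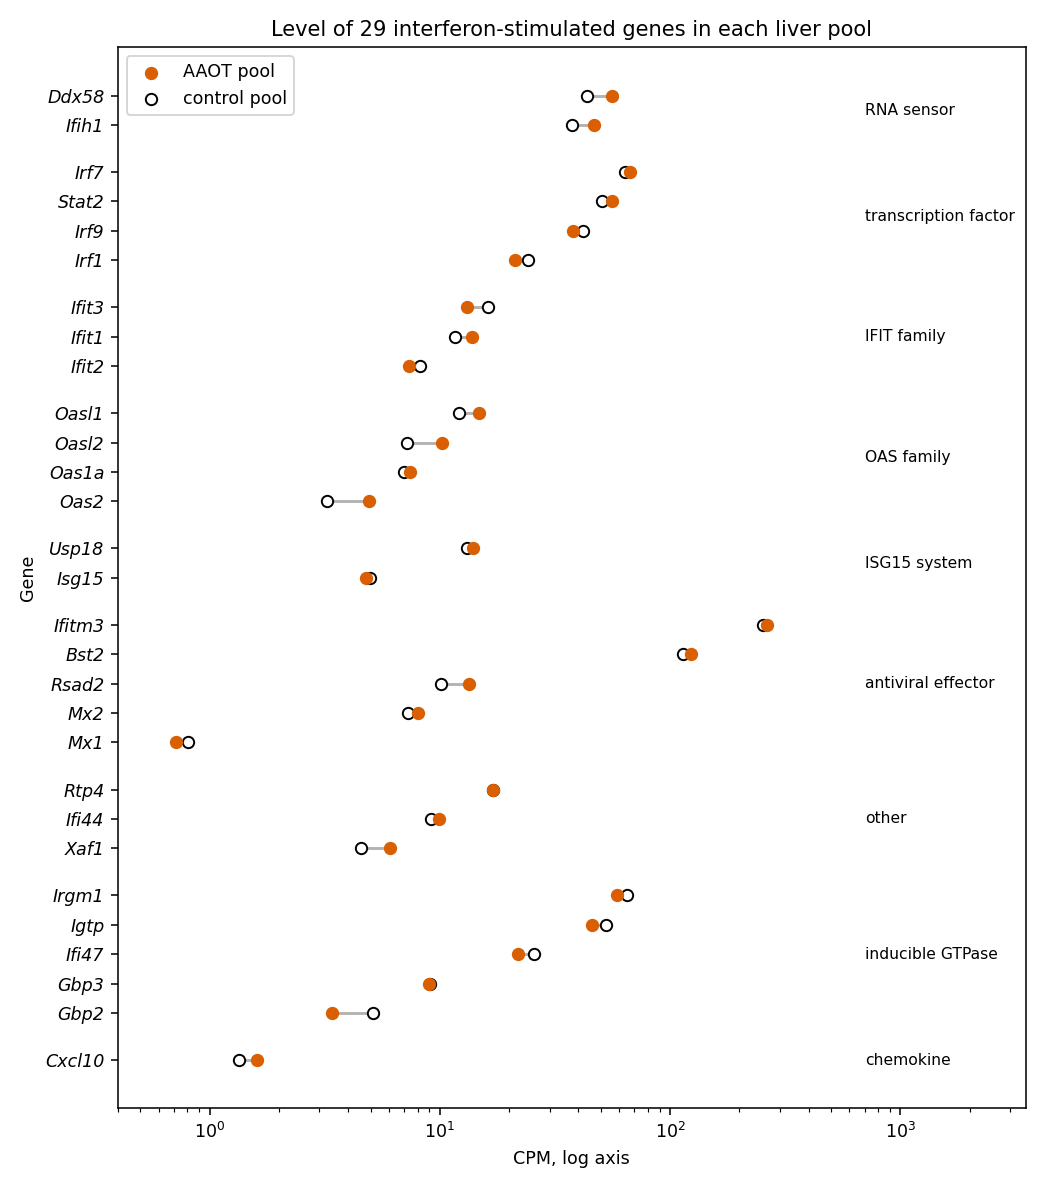
Level of each member in CPM (log axis) in the AAOT pool (filled points) and the control pool (open points), with members grouped by role and 1 library per pool. The filled and open points lie close together for every gene, from Ifitm3 at 265 CPM in the AAOT pool and 253 CPM in the control pool down to Mx1 at 0.717 CPM in the AAOT pool and 0.808 CPM in the control pool.

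The cytoplasmic RNA sensors were both higher in the AAOT pool. Ddx58, which encodes RIG-I, a sensor of viral RNA ends (chromosome 4, 40203777 to 40239825 on GRCm38), had 55.7 CPM in the AAOT pool and 43.3 CPM in the control pool, a ratio of 1.28 (1.17 to 1.41). Ifih1, which encodes MDA5, a sensor of long double-stranded RNA (chromosome 2, 62595618 to 62646255), was at 46.8 CPM in the AAOT pool and 37.4 CPM in the control pool, a ratio of 1.252 (1.13 to 1.39). Together the pair had 1716 reads in the AAOT pool and 1500 reads in the control pool, a summed ratio of 1.27 (1.18 to 1.36). Among listed genes of at least 10 CPM, 94.0% had a log2 ratio below that of Ddx58 and 92.7% below that of Ifih1. Both sensors were thus among the higher ratios of the table while short of 1.5-fold.

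Transcription factors of the pathway stayed near their control levels. Irf7, the factor that amplifies type I interferon production, was at 67.3 CPM in the AAOT pool and 63.8 CPM in the control pool, a ratio of 1.05 (0.971 to 1.145). Stat2, the STAT particular to type I and type III signalling, was at 55.8 CPM in the AAOT pool and 50.8 CPM in the control pool, a ratio of 1.099 (1.003 to 1.20), and its interval included equality when the upper quartile was used for scaling. Irf9, its DNA-binding partner, was at 37.9 CPM in the AAOT pool and 41.8 CPM in the control pool, a ratio of 0.908 (0.816 to 1.01). These components of the same complex lay on opposite sides of equality. Irf1, an early target of interferon gamma, was at 21.2 CPM in the AAOT pool and 24.1 CPM in the control pool, a ratio of 0.877 (0.761 to 1.01).

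The IFIT genes, which encode proteins that bind foreign RNA, were split. They lie near each other on chromosome 19, and together had 572 reads in the AAOT pool and 671 reads in the control pool, a summed ratio of 0.946 (0.845 to 1.06). Ifit1 was at 13.7 CPM in the AAOT pool and 11.6 CPM in the control pool, a ratio of 1.18 (0.977 to 1.43). Ifit2 was at 7.35 CPM in the AAOT pool and 8.24 CPM in the control pool, a ratio of 0.892 (0.698 to 1.14). Ifit3 was at 13.1 CPM in the AAOT pool and 16.3 CPM in the control pool, a ratio of 0.805 (0.673 to 0.961), the lowest of the type I group. Only 48.8% of the 50-base stretches of its transcript are unique to Ifit3, the others being shared with Ifit3b. The sum of Ifit3 and Ifit3b, taken after the values were seen, was 17.0 CPM in the AAOT pool and 21.2 CPM in the control pool, a ratio of 0.803 (0.687 to 0.937).

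The OAS family was higher in the AAOT pool in 4 of 4 members, where 49.7% of all listed genes were. The ratios lay between 1.06 and 1.52, and the interval was above equality for 3 of the 4, where it was for 12.7% of all listed genes. OAS enzymes make linked oligoadenylates that activate RNase L, while Oasl1 and Oasl2 encode related proteins, and all 4 genes lie on chromosome 5. Oas2 (120730333 to 120749886) had 82 reads, or 4.90 CPM, in the AAOT pool and 60 reads, or 3.23 CPM, in the control pool, a ratio of 1.52 (1.07 to 2.15). This was the highest ratio of the 29 members, and its interval is wide because of the few reads. Oasl2 (114896926 to 114912245) was at 10.2 CPM in the AAOT pool and 7.22 CPM in the control pool, a ratio of 1.42 (1.12 to 1.79). Its neighbour Oasl1, known as a repressor of Irf7 translation in the mouse, was at 14.8 CPM in the AAOT pool and 12.2 CPM in the control pool, a ratio of 1.22 (1.01 to 1.46). Oas1a was at 7.41 CPM in the AAOT pool and 7.001 CPM in the control pool, a ratio of 1.06 (0.821 to 1.36), with 42.4% unique stretches. With its copy Oas1g, added after the values were seen, it reached 9.26 CPM in the AAOT pool and 7.86 CPM in the control pool, a ratio of 1.18 (0.934 to 1.49). The family's summed ratio was 1.26 (1.12 to 1.42).

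The ubiquitin-like modifier gene Isg15, often used to read out type I interferon, was at 4.78 CPM in the AAOT pool and 4.95 CPM in the control pool, a ratio of 0.965 (0.706 to 1.32). Usp18, which encodes the protease that removes ISG15 and also damps IFNAR2 signalling, was at 13.9 CPM in the AAOT pool and 13.1 CPM in the control pool, a ratio of 1.06 (0.885 to 1.28). Neither differed beyond counting error.

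Among antiviral effectors the most abundant genes were nearly level. Ifitm3, which blocks viral entry from endosomes, was at 265 CPM in the AAOT pool and 253 CPM in the control pool, a ratio of 1.05 (1.004 to 1.09), and its interval included equality when the upper quartile was used for scaling. Bst2, which encodes tetherin and holds budding virus on the cell surface, was at 124 CPM in the AAOT pool and 114 CPM in the control pool, a ratio of 1.08 (1.02 to 1.15). Rsad2, which encodes viperin, an enzyme that makes a chain-terminating nucleotide, was at 13.4 CPM in the AAOT pool and 10.1 CPM in the control pool, a ratio of 1.32 (1.08 to 1.61). A log2 ratio below that of Rsad2 was found for 94.6% of listed genes of at least 10 CPM. The Mx GTPases, which restrict influenza and related viruses and carry defective alleles in most laboratory strains, were low. Mx2 was at 8.01 CPM in the AAOT pool and 7.27 CPM in the control pool, a ratio of 1.10 (0.861 to 1.41). Mx1 had a ratio of 0.888 (0.379 to 2.03), from which no direction can be read at this depth.

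The other type I members were the pro-apoptotic gene Xaf1, the chaperone gene Rtp4 and Ifi44. Xaf1 was at 6.10 CPM in the AAOT pool and 4.52 CPM in the control pool, a ratio of 1.35 (0.9996 to 1.82), and its interval excluded equality under 3 of 4 other scalings. Rtp4 was at 17.0 CPM in the AAOT pool and 17.1 CPM in the control pool, a ratio of 0.998 (0.847 to 1.17). Ifi44 was at 9.92 CPM in the AAOT pool and 9.15 CPM in the control pool, a ratio of 1.08 (0.870 to 1.35). Xaf1 rested on 102 reads in the AAOT pool and 84 reads in the control pool.

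**Figure D2:**
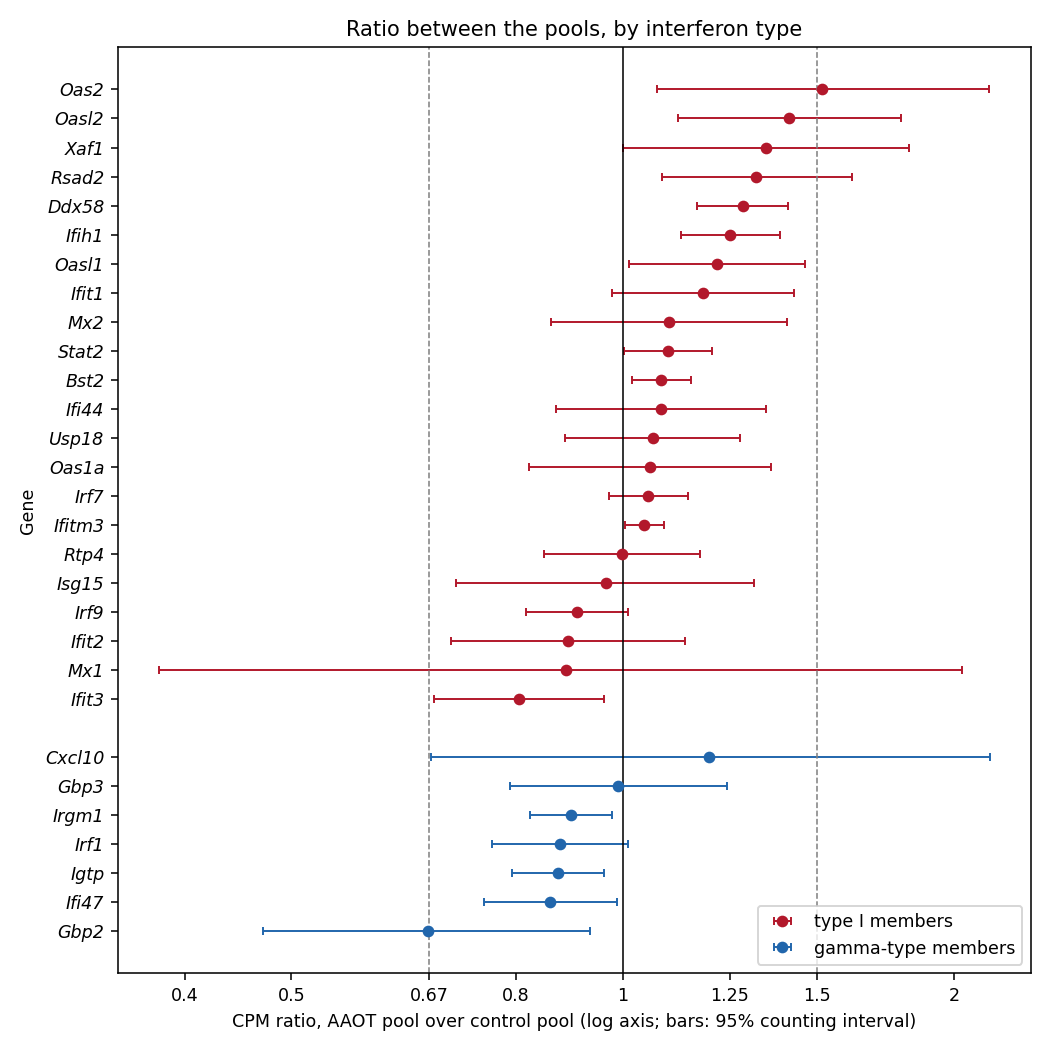
CPM ratio of the AAOT pool over the control pool for each member (log axis), with bars for the exact 95% counting interval and dashed lines at 1.5-fold either way. Type I members run from Oas2 at 1.52 down to Ifit3 at 0.805, and gamma-type members from Cxcl10 at 1.20 down to Gbp2 at 0.666.

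The 5 gamma-inducible GTPases among the members were below the control pool, where 50.3% of all listed genes were, by ratios between 0.666 and 0.991. Gbp3 crossed equality under 3 of 4 other scalings, which left 4 of 5 below. Of 13 further GTPase genes of these families, taken by symbol after the values were seen, 8 were above the control pool and 5 below it. These proteins act on the vacuoles in which intracellular bacteria and parasites live. Igtp, also called Irgm3 (chromosome 11, 58199556 to 58207592), was at 45.9 CPM in the AAOT pool and 52.6 CPM in the control pool, a ratio of 0.873 (0.793 to 0.961). Irgm1, a regulator of the family (chromosome 11, 48865245 to 48871420), was at 58.6 CPM in the AAOT pool and 65.3 CPM in the control pool, a ratio of 0.897 (0.824 to 0.977). Ifi47, also called Irg47 (chromosome 11, 49076587 to 49096987), was at 21.9 CPM in the AAOT pool and 25.5 CPM in the control pool, a ratio of 0.859 (0.748 to 0.987). These 3 immunity-related GTPases had similar ratios. Gbp2 (chromosome 3, 142620663 to 142638008) had 57 reads, or 3.41 CPM, in the AAOT pool and 95 reads, or 5.12 CPM, in the control pool, a ratio of 0.666 (0.471 to 0.934). Its neighbour Gbp3 was at 8.96 CPM in the AAOT pool and 9.05 CPM in the control pool, a ratio of 0.991 (0.790 to 1.24). The 5 GTPase genes summed to 139 CPM in the AAOT pool and 158 CPM in the control pool, a ratio of 0.881 (0.834 to 0.931).

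Cxcl10, the chemokine that draws activated T and NK cells, had 27 reads, or 1.61 CPM, in the AAOT pool and 25 reads, or 1.35 CPM, in the control pool. Its ratio of 1.20 (0.670 to 2.15) leaves the direction undetermined at this depth. It was the single gamma-type member above equality.

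Summed over the whole group, the type I members came to 797 CPM in the AAOT pool and 737 CPM in the control pool, a ratio of 1.08 (1.06 to 1.11), and without Ifitm3, the most abundant, the ratio was 1.10 (1.07 to 1.13). The gamma-type members summed to 162 CPM in the AAOT pool and 183 CPM in the control pool, a ratio of 0.883 (0.839 to 0.929), and without Irgm1 the ratio was 0.875 (0.821 to 0.932). All listed genes had a summed ratio of 0.976 on the authors' scale. The intervals of the summed ratios for the groups do not overlap, which speaks of read numbers in these libraries and leaves out differences between mice.

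**Figure D3:**
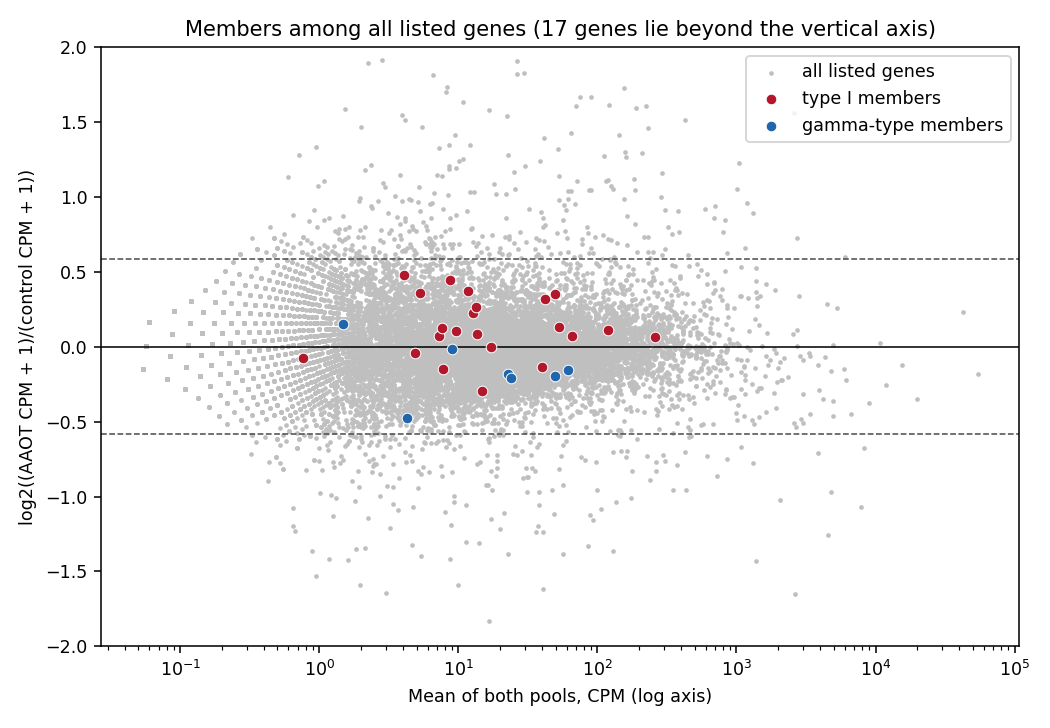
Mean CPM of both pools (log axis) against log2((AAOT CPM + 1)/(control CPM + 1)) for all listed genes (grey), type I members (red) and gamma-type members (blue), with dashed lines at 1.5-fold. All 29 members lie between the dashed lines, with log2 ratios from -0.47 (Gbp2) to 0.48 (Oas2), and 17 other genes lie beyond the vertical axis.

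Per kilobase of the longest GENCODE protein-coding transcript, the members spanned a wide range of levels. Ifitm3 was first, at 390.4 CPM per kilobase in the AAOT pool and 373 in the control pool, and Bst2 was second, at 156 in the AAOT pool and 144 in the control pool. Irf7 and Irgm1 exchanged ranks 3 and 4, with Irf7 at 30.1 CPM per kilobase in the AAOT pool and 28.5 in the control pool and Irgm1 at 25.9 in the AAOT pool and 28.9 in the control pool. Ddx58 ranked 6 in the AAOT pool and 10 in the control pool, at 14.4 CPM per kilobase in the AAOT pool and 11.2 in the control pool. Mx1 was last in both, at 0.212 CPM per kilobase in the AAOT pool and 0.239 in the control pool. The classical readout Isg15 ranked 16 in the AAOT pool and 15 in the control pool, at 6.32 CPM per kilobase in the AAOT pool and 6.55 in the control pool.

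Genes upstream of the members were measured as well. Of 15 interferon genes looked up, 14 had no row in the table used here, in which the smallest summed read number of a gene was 2. Ifnk, a type I interferon of the skin, had 15 reads in the AAOT pool and 6 reads in the control pool, a ratio of 2.77 (1.02 to 8.73). The type I receptor chains differed in direction, with Ifnar2 at 62.6 CPM in the AAOT pool and 50.7 CPM in the control pool, a ratio of 1.23 (1.13 to 1.35), and Ifnar1 at 65.9 CPM in the AAOT pool and 75.7 CPM in the control pool, a ratio of 0.870 (0.803 to 0.942). Both gamma receptor chains were lower in the AAOT pool. Ifngr1 was at 16.3 CPM in the AAOT pool and 19.8 CPM in the control pool, a ratio of 0.825 (0.703 to 0.968). Ifngr2 was at 24.1 CPM in the AAOT pool and 28.2 CPM in the control pool, a ratio of 0.855 (0.749 to 0.976). Il10rb, a chain of the interferon lambda receptor, had a ratio of 1.15 (0.917 to 1.45), and Ifnlr1 had 13 reads in each pool.

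The kinases and STATs that carry the signal showed smaller differences. Tyk2 was at 37.3 CPM in the AAOT pool and 35.2 CPM in the control pool, a ratio of 1.06 (0.949 to 1.19). Jak1 was lower at 0.915 (0.865 to 0.967), Jak2 had a ratio of 0.930 (0.817 to 1.06) and Stat3 one of 1.03 (0.976 to 1.09). Across these 4 genes 0 were 1.5-fold apart and the median log2 ratio was -0.03. Of 17 sensors and adaptors besides Ddx58 and Ifih1, 0 were 1.5-fold apart after 1 CPM was added, where 2.36% of all listed genes were higher and 1.60% lower. Without the added CPM, Mb21d1 was past 1.5-fold at 2.38 (0.913 to 6.89), on 15 reads in the AAOT pool and 7 reads in the control pool. Above the control pool were 10 of the 17, beside 49.7% of all listed genes. The interval lay above equality for 3 and below it for 2, beside 12.7% and 13.1%. Among the sensors and adaptors of at least 10 CPM, the kinase gene Ikbke, itself interferon-inducible, was the farthest from equality. It was at 21.2 CPM in the AAOT pool and 14.5 CPM in the control pool, a ratio of 1.46 (1.246 to 1.72). Mavs, the adaptor that RIG-I and MDA5 share, had a ratio of 1.14 (1.07 to 1.21), the related helicase gene Dhx58 one of 1.13 (0.954 to 1.35), and Trim25, a ubiquitin ligase of the RIG-I pathway, one of 0.855 (0.805 to 0.908).

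In wider lists of interferon genes both the type I and the gamma-type median lay above 0. Of 44 other type I genes listed, 29 were above the control pool, where 49.7% of all listed genes were, and the median log2 ratio was 0.05. The interval lay above equality for 7 of them and below it for 1, where 12.7% and 13.1% of all listed genes did so. After 1 CPM was added, 1 gene of this list was 1.5-fold higher and 0 were 1.5-fold lower, near the 2.36% and 1.60% of all listed genes. The one past 1.5-fold was Oas1g, named after its values were seen, with 31 reads in the AAOT pool and 16 reads in the control pool. Without the added CPM, Oas1c at 2.14 (1.08 to 4.42), Oas1b at 1.70, Ms4a4c at 1.66 and Slfn8 at 1.53 (1.06 to 2.22) were also past it. Mndal at 0.462 and Ifit1bl1, with 0 reads in the AAOT pool and 3 reads in the control pool, were past it on the lower side. The genes of at least 10 CPM farthest from equality were Parp12 at a ratio of 1.18 (1.08 to 1.30), Uba7, the activating enzyme of ISG15, at 1.18 (1.01 to 1.39), Herc6, its ligase in the mouse, at 1.14 (0.995 to 1.30), and Ube2l6, its conjugating enzyme, at 1.13 (1.03 to 1.248). Of 24 other gamma-type genes listed, 16 were above the control pool and 8 below it, beside the same 49.7% above. Their median log2 ratio was 0.09, against -0.18 for the 7 members. Their summed ratio was 0.901 (0.886 to 0.917), so the sum and the median of this list differed in direction. The sum leaned on its most abundant gene, Serping1, at 622 CPM in the AAOT pool and 772 CPM in the control pool. The whole list came to 1378 CPM in the AAOT pool and 1529 CPM in the control pool, so its sum says little of the other genes. The interval lay above equality for 4 of the 24 and below it for 3, beside the same 12.7% and 13.1%. Iigp1, at 397 CPM in the AAOT pool and 425 CPM in the control pool, had a ratio of 0.934 (0.904 to 0.965). Gbp7, a guanylate-binding protein like Gbp3, was at 40.1 CPM in the AAOT pool and 28.6 CPM in the control pool, a ratio of 1.40 (1.247 to 1.57). Nlrc5, the activator of MHC class I genes, had a ratio of 1.48 (1.28 to 1.71), while the complement inhibitor gene Serping1 had one of 0.806 (0.786 to 0.827) and Irgm2, the relative of Igtp, one of 0.901 (0.831 to 0.977). Cxcl11, named after its values were seen, was the one gene of this list past 1.5-fold after 1 CPM was added. It had 21 reads in the AAOT pool and 7 reads in the control pool. Among all listed genes 2.36% were 1.5-fold higher and 1.60% lower. Without the added CPM, Gbp8 at 1.69, Gbp5 at 0.646, Ciita at 0.485 and Nos2 at 0.222 also lay past 1.5-fold, with intervals that included equality.

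**Figure D4:**
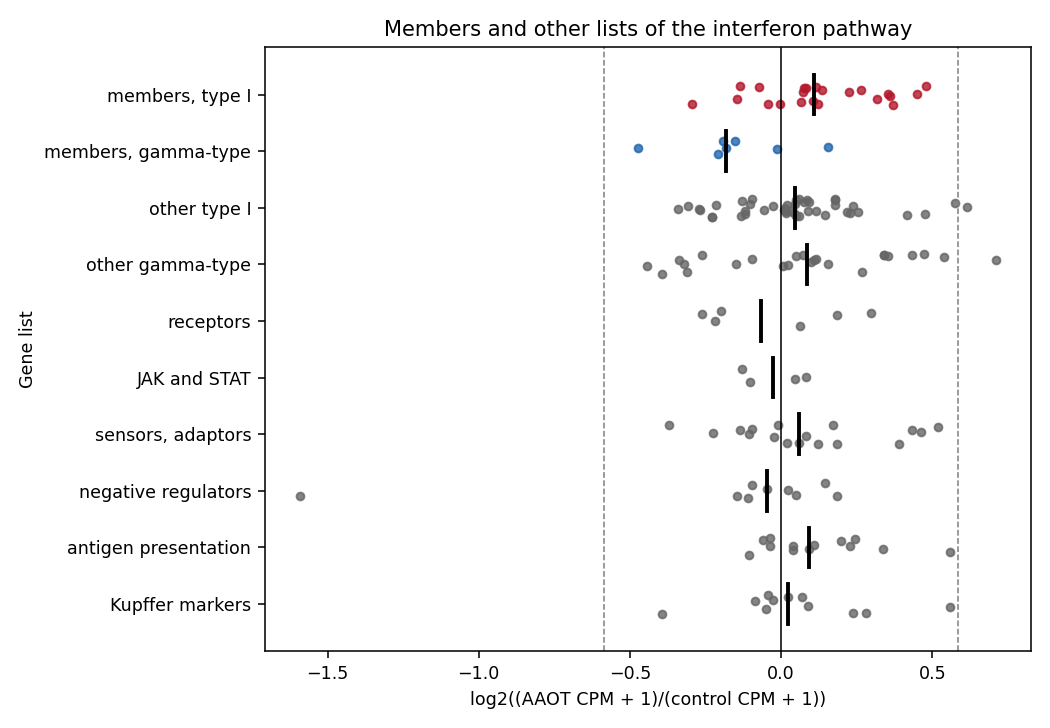
log2((AAOT CPM + 1)/(control CPM + 1)) for each listed gene of the members and of other lists of the interferon pathway, with black bars for the list medians and dashed lines at 1.5-fold. The gamma-type members have a median of -0.18, while the other gamma-type genes have one of 0.09, and the point at -1.59 among the negative regulators is Socs3.

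The cells that could contribute these transcripts were followed by their markers. In bulk liver RNA, fewer cells of a type and less RNA per cell cannot be told apart. The hepatocyte markers were abundant in both pools, with Alb at 50830 CPM in the AAOT pool and 57688 CPM in the control pool. Of these 9 markers, 3 were above the control pool, where 49.7% of all listed genes were, and 6 were below it. Their summed ratio was 0.876 (0.874 to 0.878). The interval lay above equality for 3 of the 9 and below it for 6. Among listed genes of at least 10 CPM the shares above and below were 18.7% and 20.8%. Apoa1, picked by its ratio, was at 0.612 (0.605 to 0.618). It alone of the 9 was past 1.5-fold with 1 CPM added, beside 1.60% of all listed genes on the lower side. Of 11 Kupffer cell and macrophage markers, 6 were above the control pool, where 49.7% of all listed genes were. The 11 markers summed to 410.3 CPM in the AAOT pool and 391 CPM in the control pool, a ratio of 1.05 (1.01 to 1.08). For 3 of these 11 the interval lay above equality and for 0 below it, where 12.7% and 13.1% of all listed genes did so. These 3, named after their values were seen, were Adgre1 at 1.23 (1.07 to 1.41), Csf1r at 1.18 (1.07 to 1.31) and Marco at 1.57 (1.19 to 2.06). The most abundant markers, Clec4f and Cd5l, had ratios of 1.05 (0.985 to 1.12) and 1.02 (0.948 to 1.09). Lowest was Timd4 at 0.709 (0.492 to 1.01). The 8 sinusoidal endothelial markers summed to 497 CPM in the AAOT pool and 481 CPM in the control pool, a ratio of 1.03 (1.002 to 1.06). Of these 8, 3 were above the control pool, and the interval lay above equality for 2 and below it for 1, beside the same shares. Of 11 lymphocyte and NK cell markers, 8, among them Cd3e and Ncr1, had no row, and the 3 with one summed to 18 reads in the AAOT pool and 14 reads in the control pool. The plasmacytoid dendritic cell gene Siglech had 1 read in each pool, and the 4 listed markers of that cell summed to 41 reads in the AAOT pool and 43 reads in the control pool. The 6 listed neutrophil and monocyte markers summed to 46 reads in the AAOT pool and 36 reads in the control pool. The part of cell makeup in the small ratios of the members was not tested.

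The ISRE letters, GAAA, any 2 bases and GAAA, were searched in the 250 bases before the start, on both strands, for the 24 members with a RefSeq window. They were found for 12, of which 7 were type I members and 5 gamma-type members, while 3.46% of all 27025 genes with a window held them. The GAS letters TTCNNNGAA were found for 5 members, which were Ifit2, Oas1a, Bst2, Irf1 and Igtp, and for 8.13% of all genes. ISRE letters thus stood before genes of both groups. The 12 members with ISRE letters had a median log2 ratio of 0.03 and the 12 without had one of 0.09. Among members with them, the 7 type I genes had a median of 0.12 and the 5 gamma-type genes one of -0.15. Ddx58 and Ifih1, both higher in the AAOT pool, had no match in this window, and Isg15, with 3 overlapping matches, was level. In Igtp and Bst2 both kinds of match stood close together. A match is a run of letters and says nothing of binding in these livers.

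**Figure D5:**
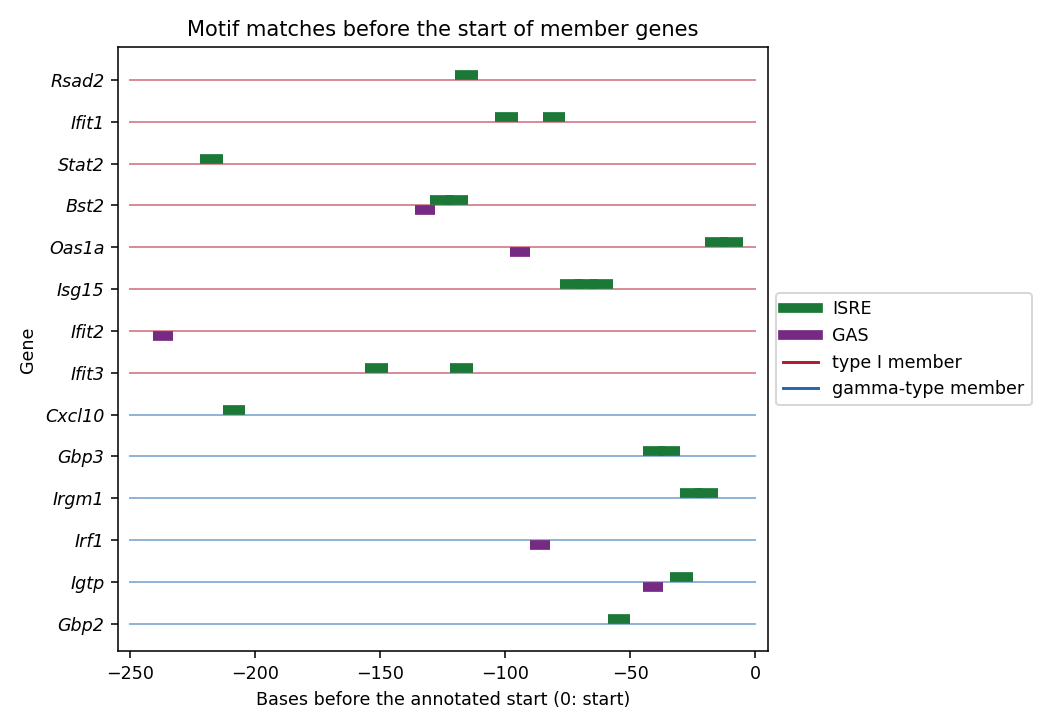
Positions of ISRE (green) and GAS (purple) matches in the 250 bases before the annotated start, for the 14 members that hold either, ordered within each group by the ratio of the AAOT pool over the control pool. Matches wholly within 60 bases of the start are seen for Oas1a of the type I members and for Gbp2, Gbp3, Igtp and Irgm1 of the gamma-type members, and Isg15 has its nearest at 57 bases.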

How the data were processed

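Liver RNA was column-purified, depleted of ribosomal RNA and made into directional libraries from 200 ng, per the labels' protocols. The values deposited by the authors are CPM that include a scaling factor per library, since the columns sum to 987690 for the AAOT pool and 1012463 for the control pool. Per the submitters' processing notes, mm10, edgeR, RSEM, Bowtie2 and Trimmomatic 0.38 were used, in roles they do not give. The sources used here give no annotation. Dividing each column by its smallest value above 0 gave whole reads for 100% of values (relative tolerance 1e-06). With 1 library per group a count model was not run on them.

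Ratios are those of CPM, and log2 ratios have 1 CPM added, which understates the change of low genes. Intervals are Clopper-Pearson, conditional on the sum of the reads. Reads are not independent molecules, so intervals and the limit from a count of 0 cover counting error only. All 29 members were named, and of other lists up to 4 genes of at least 10 CPM farthest from equality, with receptors, kinases and STATs. Some genes that this rule takes are left out here. The members and lists were chosen with earlier results of these data known. Positions are RefSeq's on GRCm38.p6, the assembly that mm10 refers to, and all 29 symbols matched. A gene with under 90% unique 50-base stretches has reads that counting could split (5 members, Ifit3, Oas1a, Rtp4, Ifitm3 and Igtp). The steps were run on simulated data that held counting error and planted 2-fold changes only, which says nothing of differences between mice or libraries. Alternatives were 4 scalings, constants of 0.1 and 5 CPM, minimum means of 1 and 10 CPM, a smaller size (5 to 4) and a 2-fold one, and a 99% interval. Figures were drawn with matplotlib 3.10.9, and values computed with scipy 1.17.1, pandas 2.3.3 and numpy 2.4.6 under Python 3.11.15.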

Additional observations from a re-analysis of the deposited data

How the results depend on the processing

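No paired analysis was possible because each group has 1 library. Members 1.5-fold apart numbered 0 in each direction under the 4 other scalings, the minimum means of 1 and 10 CPM, a constant of 5 CPM and a size of 2-fold. With a constant of 0.1 CPM 1 was higher, and at the smaller size of 5 to 4 a total of 5 were higher and 1 lower, beside 9.36% and 7.75% of all listed genes. With a 99% interval 5 members lay above equality (Oasl2, Rsad2, Bst2, Ddx58 and Ifih1) and 1 below it (Igtp), beside 9.07% and 8.54%. With plain CPM of the column totals, and with Rn45s left out of those totals, 3 members lay below equality, and the log2 summed ratio of the type I members, 0.11 on the authors' scale, was 0.15 and 0.16. Without Rn45s their median was 0.16. The interval of Ifit1 lay above equality under both of these scalings and that of Irf7 without Rn45s. The scalings moved all log2 ratios alike, by between -0.0070 and 0.048. The medians and sums of both groups kept their sign under every alternative run on them. Low reads limit Mx1, Cxcl10, Isg15, Oas2 and Gbp2 most.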

Other observations

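Socs3 was the one gene past 1.5-fold among those that hold interferon signalling back. Of 9 listed, 4 were above the control pool, where 49.7% of all listed genes were, and the median log2 ratio was -0.05. Of the 9, 0 were 1.5-fold higher and 1 was 1.5-fold lower, where 2.36% and 1.60% of all listed genes were. The interval lay above equality for 0 of the 9 and below it for 2, Socs3 and Ptpn11, where 12.7% and 13.1% of all listed genes did so. Socs3, the inhibitor of JAK signalling that cytokines of the IL-6 family induce, was at 4.42 CPM in the AAOT pool and 15.3 CPM in the control pool, a ratio of 0.288 (0.220 to 0.373), and was named after its values were seen. Its relative Socs1, the main inhibitor of interferon receptors and likewise named after its values were seen, had 9 reads in the AAOT pool and 13 reads in the control pool, from which no direction can be read. The phosphatase genes Ptpn6, Ptpn2 and Ptpn11 had ratios of 1.15 (0.955 to 1.38), 1.12 (0.910 to 1.37) and 0.927 (0.871 to 0.987), and Pias1, an inhibitor of STAT proteins, one of 1.04 (0.887 to 1.21).

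Antigen presentation genes, which interferons also induce, lay on both sides of equality. Of 13 listed, 9 were above the control pool, where 49.7% of all listed genes were. After 1 CPM was added 0 were 1.5-fold apart, near the 2.36% of all listed genes that were higher and 1.60% lower. The median log2 ratio was 0.09 and the summed ratio 0.984 (0.971 to 0.997). Without the added CPM Psmb9, named after its values were seen, lay just past 1.5-fold at 1.54 (1.22 to 1.95). It had 175 reads in the AAOT pool and 126 reads in the control pool. The interval lay above equality for 5 of the 13 and below it for 3, where 12.7% and 13.1% of all listed genes did so. Of the 13, 12 reached 10 CPM, and among all listed genes at that level the shares were 18.7% and 20.8%. The 3 below equality, named after their values were seen, were B2m at 0.976 (0.954 to 0.998), H2-K1 at 0.960 (0.929 to 0.992) and H2-D1 at 0.929 (0.907 to 0.951). Psmb10, a subunit of the immunoproteasome, was at 24.3 CPM in the AAOT pool and 19.1 CPM in the control pool, a ratio of 1.28 (1.10 to 1.48). The class I gene H2-Q4 had a ratio of 1.19 (1.08 to 1.31), Tapbp, which encodes tapasin, one of 1.17 (1.11 to 1.24), and the proteasome activator gene Psme1 one of 1.15 (1.06 to 1.253). Gene sequences of the class I family are alike, so the reads of H2-Q4, H2-K1 and H2-D1 are uncertain.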
